A study of Mus musculus with 4 samples.

Results

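The mitotic cells described here are 513 of the 3926 cells in the library of mouse stomach corpus taken 1 day after L635, and the 4 libraries hold 38732 cells in all. Cells were barcodes with 500 or more UMIs (unique molecular identifiers, each a counted RNA molecule) and 200 or more genes, of whose UMIs no more than 50% were mitochondrial. The members were chosen by measured counts. A cell was called mitotic when 9 genes (Mki67, Top2a, Cdk1, Birc5, Ube2c, Ccnb1, Ccnb2, Ccna2 and Cdc20) summed to at least 3 UMIs and to at least 5 per 10000 UMIs. Its Atp4a and Atp4b UMIs, which encode the proton pump of parietal cells, also had to stay under 50 per 10000. By the same rule, the untreated library held 847 mitotic cells of 13897, the day 3 library 197 of 7986, and the library of day 3 with AREG (amphiregulin) 788 of 12923.

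All mice were C57BL6/J wild type, aged 6 to 7 weeks. Injured mice had received a single oral dose of L635 at 350 mg/kg, and the untreated library comes from controls given PBS. Tissue of the corpus, where the stomach's acid glands lie, was dissociated with TrypLE and 10 nM Y27632, and each PIPseq T20 3' capture was loaded with 25000 cells. The sources used here give neither the dose, route and schedule of AREG nor the number of mice behind each library. Each group is a single library, so the differences have no replicate check and no p-value. All intervals are at 95% and cover counting error only.

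L635 kills parietal cells and is used as a model of acute injury of the oxyntic mucosa. In the undamaged corpus, dividing cells are mostly progenitors of the isthmus, the zone of the gland between the pit and the neck, which renew the surface pit cells quickly and the other lineages more slowly. Transcripts of the 9 rule genes build up from S phase to mitosis under E2F, B-Myb and FoxM1 complexes and are removed as cells leave division, so the rule takes cells in S phase and G2 as well as in mitosis.

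Promoters of rule genes and of genes high on day 1 are shown here because the results turn on these groups of genes. Each line holds the 120 bases just before the start site lying furthest upstream among the gene's RefSeq starts, 5′ to 3′ on the gene's strand, in build GRCm38.p6, which is older than the build of the counts. In the first 4, capitals mark CCAAT and TTTGAA, on either strand. CCAAT is the letters of the box bound by NF-Y, and TTTGAA those of the cell cycle homology region.
Cdk1, chr10:69352913-69353032, minus strand: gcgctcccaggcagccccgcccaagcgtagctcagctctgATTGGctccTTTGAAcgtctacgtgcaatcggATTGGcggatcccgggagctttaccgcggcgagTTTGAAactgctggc
Cdc20, chr4:118437344-118437463, minus strand: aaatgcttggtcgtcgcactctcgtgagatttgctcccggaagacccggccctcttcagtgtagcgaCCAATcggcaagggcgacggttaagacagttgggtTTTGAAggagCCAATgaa
Top2a, chr11:99024190-99024309, minus strand: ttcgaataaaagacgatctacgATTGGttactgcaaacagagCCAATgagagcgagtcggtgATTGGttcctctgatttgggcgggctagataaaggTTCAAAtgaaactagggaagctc
Ccnb1, chr13:100786487-100786606, minus strand: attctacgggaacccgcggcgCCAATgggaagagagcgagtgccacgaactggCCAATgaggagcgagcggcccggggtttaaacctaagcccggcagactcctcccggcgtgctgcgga
Over the 250 bases before the start, TTTGAA stood in 6 of the 8 rule genes that the table holds and in 16.3% of all 27025 promoters. CCAAT stood in 7 of those 8 and in 34.5% of all. In the next 3, capitals mark TGANTCA, the letters of the AP-1 site, which read the same on both strands.
Sprr1a, chr3:92485882-92486001, minus strand: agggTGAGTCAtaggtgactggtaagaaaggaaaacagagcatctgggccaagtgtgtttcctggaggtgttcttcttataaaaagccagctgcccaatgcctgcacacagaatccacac
Plaur, chr7:24462363-24462482, plus strand: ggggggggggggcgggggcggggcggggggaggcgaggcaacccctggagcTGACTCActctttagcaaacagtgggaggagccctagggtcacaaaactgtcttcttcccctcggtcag
Krt7, chr15:101412283-101412402, plus strand: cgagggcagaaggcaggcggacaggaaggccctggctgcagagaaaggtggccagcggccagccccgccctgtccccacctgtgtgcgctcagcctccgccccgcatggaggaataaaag
TGANTCA stood in the 250 bases of 6 of the 17 wound genes that the table holds (Sprr1a, Plaur, S100a11, Anxa2, Emp1 and Il1rn) and of 6.85% of all promoters. Krt7 held none there. A match is a run of letters and was not tested as a binding site.

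Mitotic cells made up a larger share of the day 1 library than of any other. The share was 13.1% on day 1 (exact Clopper-Pearson interval 12.0 to 14.2), 6.09% in the untreated library (5.70 to 6.51), 2.47% on day 3 and 6.10% on day 3 with AREG. The day 1 share was thus 2.14-fold the untreated one, a log2 ratio of 1.10 (0.95 to 1.25). The day 1 library also held far fewer cells at or over the proton pump limit, 298 against 4470. Among cells under the limit the shares were 14.1% and 8.98%, with a log2 ratio of 0.65. In number, mitotic cells were fewer on day 1 than in the untreated library, and fewer cells of other types and more dividing cells cannot be told apart from shares.

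**Figure D1:**
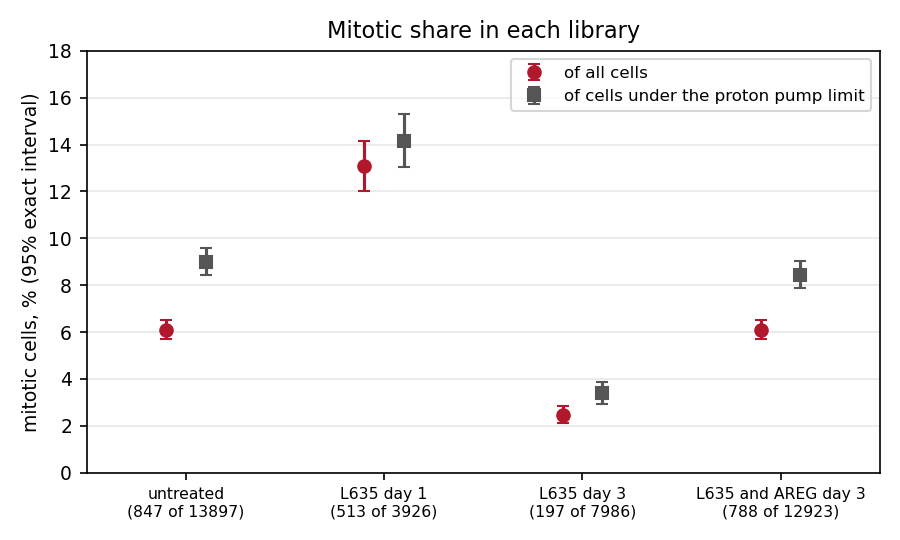
Mitotic cells as a percent of all cells (circles) and of cells under the proton pump limit (squares) in each of the 4 libraries, with exact 95% intervals for counting error. The day 1 library stands highest on both, at 13.1% and 14.1%.

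Day 1 mitotic cells were deep. Their median was 7935 UMIs and 2802 genes, against 6475 UMIs and 1821 genes in untreated mitotic cells and 2234 UMIs in the other day 1 cells. The deepest 10% of them held 46.8% of all their UMIs, and the deepest single cell, at 377034 UMIs, held 3.68%. Doublets were not removed, and their part in these values was not tested. No mitotic barcode was shared between any 2 libraries. Barcodes in a middle range of ranks, from past 20000 and without the emptiest ones below that range, were taken as a measure of free RNA. They had a median of 38 UMIs on day 1 and 97 in the untreated library.

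The edges of the rule were not sharp. On day 1, 60 members had exactly 3 rule UMIs, and 120 cells just outside had 2 at the same rate. Spindle genes made up 2036 CPM (UMIs per 1000000) in the first and 2703 in the second. At 5 to 6 rule UMIs per 10000 there were 29 members, with 1283 CPM of spindle genes, and at 4 to 5 per 10000 there were 26 cells outside, with 857.

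The rule genes are given as a description only, since their sum chose the members in both libraries and a higher share of one gene goes with a lower share of another. Of the 9, only Ccna2 passed a 2-fold ratio between day 1 and untreated mitotic cells, and none was 2-fold lower. Ccna2, the cyclin of S phase and G2, stood at 150 CPM on day 1 and 73.5 in untreated mitotic cells. Mki67, which coats mitotic chromosomes, stood at 111 and 58.8, and Cdk1, the mitotic kinase, at 230 and 166. Cdc20, the activator of the anaphase-promoting complex, stood at 86.4 on day 1 and 160 untreated, Ube2c, the ubiquitin carrier of that complex, at 373 and 536, and cyclin Ccnb2 at 92.4 and 142. Top2a, the topoisomerase of chromosome separation, stood at 101 and 70.8, the survivin gene Birc5 at 268 and 291, and cyclin Ccnb1 at 84.4 and 92.3. The 9 genes summed to about the same level, 1496 CPM against 1591.

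For the comparison of day 1 with untreated mitotic cells, UMIs were summed over the cells of each group, and a gene counted as higher or lower at a 2-fold ratio of CPM plus 1. Of 7658 genes at 10 CPM or more in either sum, 2341 were higher on day 1, which is 30.6%, and 147 were lower, which is 1.92%. The median gene was itself 0.52 higher on the log2 scale. Relative to that median gene, 871 genes (11.4%) were at least 2-fold above and 677 (8.84%) at least 2-fold below. Another total left out mitochondrial and ribosomal protein genes and the 20 most abundant of the rest. With it, 2192 of 9352 genes were higher (23.4%) and 393 lower (4.20%), and the median was 0.33.

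Genes linked to wounded epithelium were among those with the highest ratios, and others, such as Fkbp5 and Cul3, are given below. Krt7, a keratin of simple and ductal epithelia, stood at 398 CPM in day 1 mitotic cells (386 to 411) and at 6.69, 7.36 and 6.12 CPM in the mitotic cells of the untreated, day 3 and AREG libraries. The day 1 cells thus stood apart from the other 3 groups, which lay close together. The log2 ratio to untreated was 5.70, with a counting interval of 5.49 to 6.33 taken without the added 1 CPM. Msln, mesothelin, a surface protein best known from mesothelium, stood at 164 CPM on day 1. It was at 0.401 CPM in untreated mitotic cells, from 3 UMIs, and at 0 UMIs in both day 3 groups, which allows up to 1.84 CPM on day 3 and 0.634 with AREG. Its log2 ratio to untreated was 6.88 with 1 CPM added to both sides. The counting interval, taken without the added 1 CPM, was 7.12 to 10.95 and so lies above that ratio.

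S100a6, a calcium-binding protein of the S100 family, was the most abundant of these genes, at 14489 CPM on day 1, 403 untreated, 267 on day 3 and 753 with AREG. Sprr1a, a small proline-rich protein of the cornified envelope induced in injured epithelia, stood at 366 CPM on day 1 and 12.4 untreated. Reads of Sprr genes may be shared between near-identical copies, so its level is uncertain. Lgals3, a galectin, stood at 523 against 34.9 CPM. Plaur, the urokinase receptor, stood at 90.9 against 8.30. S100a10, the annexin A2 partner, stood at 175 against 18.6. Each of these genes was below its day 1 mitotic level in all 3 of the other libraries' mitotic cells.

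Of the 23 measured genes of the wound list, 19 were at least 2-fold higher than in untreated mitotic cells and none lower. The higher ones were 82.6%, against 30.6% of all genes. The median log2 ratio was 2.12, or 1.60 above the median gene. Counted against the median gene, 13 were at least 2-fold above it. The list was chosen with day 1 results of these libraries known, so its direction is not independent evidence. The 4 members under 2-fold were Lamb3 (log2 0.97), Clu (0.60), Emp1 (0.55) and Anxa5 (0.45). Cd44, a hyaluronan receptor, stood at 28.7 CPM against 3.48, and Plac9 at 461 against 99.3.

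**Figure D2:**
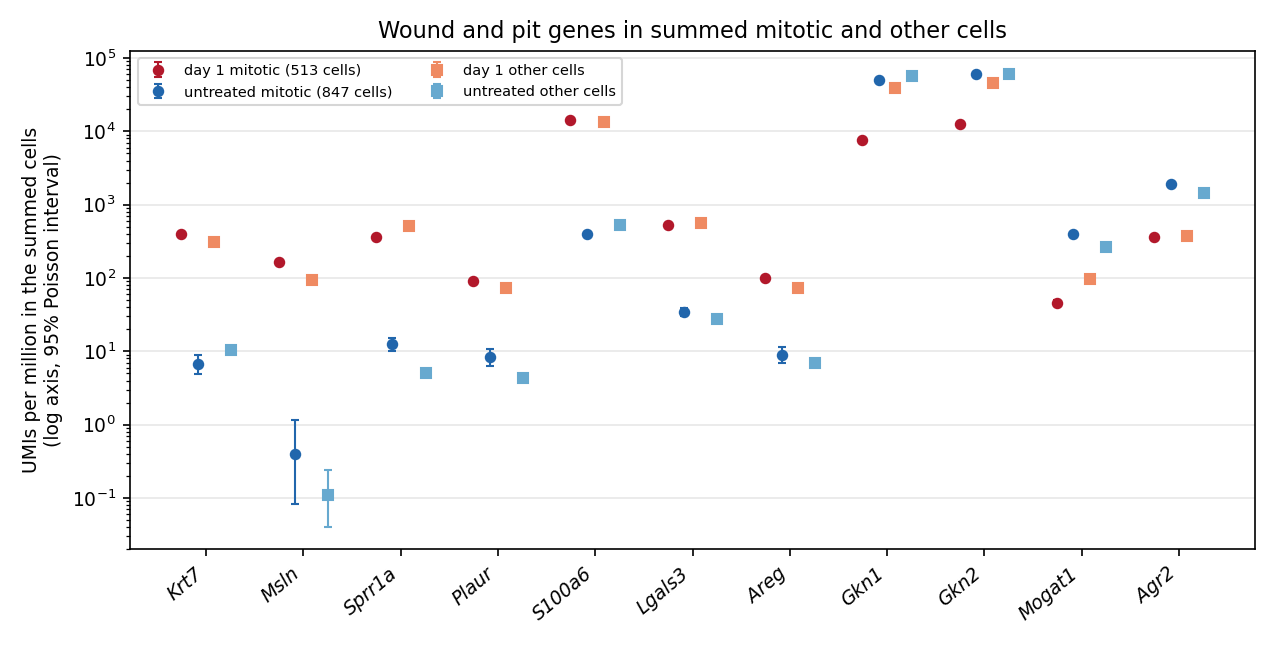
Level of 11 genes in CPM on a log axis, for the summed mitotic (circles) and other (squares) cells of the day 1 and untreated libraries, with 95% Poisson intervals. Krt7, at 398 CPM in day 1 mitotic cells, is close to its level of 310 in the other day 1 cells and far above 6.69 in untreated mitotic cells, while Gkn1 and Gkn2 are lowest in the day 1 mitotic cells.

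These genes were not particular to the dividing cells of that day. In other day 1 cells Krt7 stood at 310 CPM, Msln at 95.1, Sprr1a at 515, Plaur at 72.1 and S100a6 at 13374. Among 8067 genes compared between day 1 mitotic cells and other day 1 cells, 385 were higher (4.77%) and 383 lower (4.75%). Of 24 wound genes, 0 were higher and 1, Lama3, was lower, with a median log2 ratio of 0.18. Plac9 had a log2 ratio of 0.87 and S100a10 of 0.79. Of the markers given for these cells, Cdk1 and Mki67 set the mitotic cells apart within the library through the rule itself. Krt7 and Msln set the day 1 library apart more than its mitotic cells, at log2 ratios of 0.36 and 0.78 to other day 1 cells.

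Most markers of other tissues were near 0 in the day 1 mitotic cells. Besides Msln, the mesothelium list held Upk3b at 0.489 CPM, Lrrn4 and Upk1b at 0.195 each and Wt1 at 0.0977. Its sixth gene, Gpm6a, stood at 8.60 CPM on day 1 and 18.6 in untreated mitotic cells. The squamous forestomach keratins Krt5 and Krt14 stood at 0.0977 and 0.195 CPM. No member of the immune, fibroblast, squamous or antrum lists reached 10 CPM in either mitotic sum, and Ptprc, the pan-leukocyte marker, stood at 1.37. Epithelial genes were high, with Epcam at 241, Cdh1 at 317 and Krt8 at 2802 CPM. In the endothelium list Cdh5 stood at 32.5 CPM, against 13.1 in untreated mitotic cells and 34.8 in other day 1 cells.

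The part of free RNA was estimated by giving each cell the same number of free UMIs, in the makeup of barcodes under 50 UMIs. At 38 UMIs per cell, free RNA came to 0.151% of the Krt7 UMIs summed over day 1 mitotic cells, 0.173% of Msln and 0.162% of S100a6. In untreated mitotic cells, at 97 UMIs per cell, it came to 29.9% of Clps, 29.4% of Pla2g1b and 31.4% of Ghrl. These sums lean on deep cells, and the share in shallow cells was not estimated.

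To compare cells at equal depth, each was thinned to 2000 UMIs, which kept 414 day 1 and 779 untreated mitotic cells and left out 99 and 68. After thinning, 31.9% of day 1 mitotic cells had a Krt7 UMI (27.4 to 36.6), against 1.41% of untreated ones. The unthinned shares were 55.6% and 4.84%. Krt7 was found in 23.6% of other day 1 cells and in 15.5% of day 1 cells over the proton pump limit, whose median depths were 2234 and 4355 UMIs. Msln was found in 15.9% of day 1 mitotic cells (12.5 to 19.8) and in 0 of 779 untreated ones, which allows up to 0.385%. In other day 1 cells Msln was found in 8.71%, and over the proton pump limit in 2.06%.

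The 4 genes Krt7, Msln, Sprr1a and Plaur were spread over many cells. At least 1 of them was found in 219 of 414 thinned day 1 mitotic cells, 52.9%, against 34 of 779 untreated ones, 4.36%. All 4 were found in 9 cells. S100a6 was found in 99.8% of day 1 mitotic cells and 41.7% of untreated ones. Per cell, S100a6 had a median of 101 per 10000 UMIs on day 1, with 10% of cells below 38.9 and 10% above 213, against a median of 2.16 in untreated mitotic cells. The 10th percentile on day 1 thus lay above the 90th percentile of untreated cells, 10.5.

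**Figure D3:**
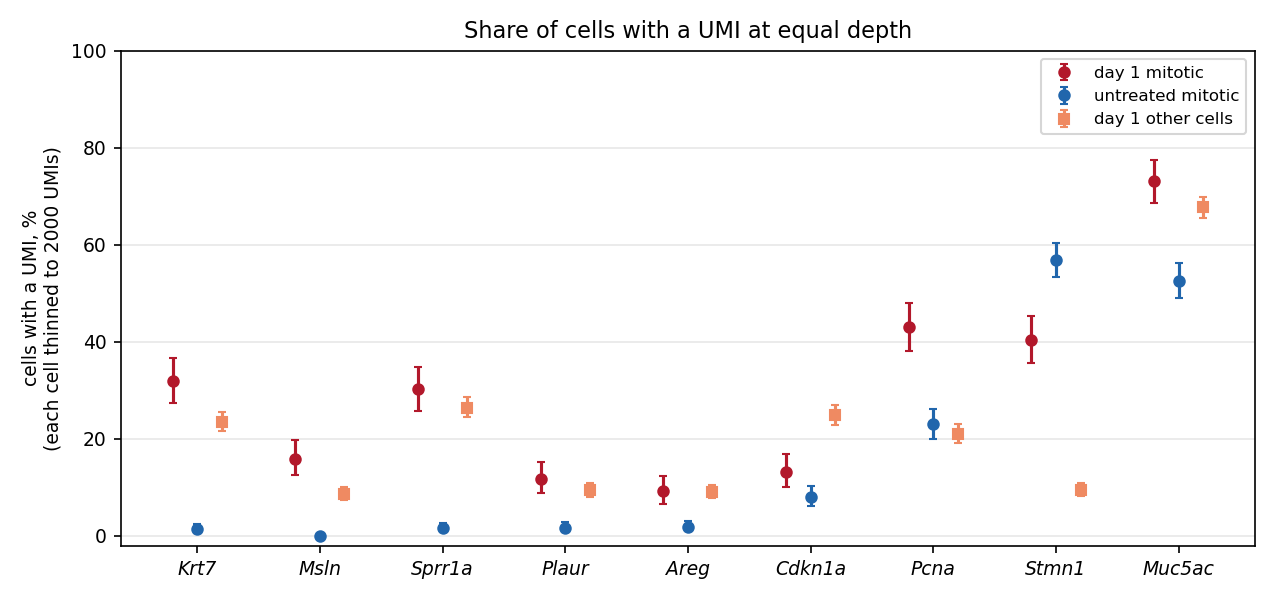
Percent of cells with at least 1 UMI of each gene after every cell was thinned to 2000 UMIs, with exact 95% intervals, for day 1 mitotic, untreated mitotic and other day 1 cells. Krt7, Msln and Sprr1a separate the day 1 groups from untreated mitotic cells, while Stmn1 separates both mitotic groups from the other day 1 cells.

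Krt7 was above the untreated level at every depth. Krt7 stood at 341 CPM in the 99 day 1 members under 2000 UMIs, at 281 in the 160 between 2000 and 8000, at 268 in the 143 between 8000 and 30000, and at 455 in the 111 deeper ones. Untreated mitotic cells between 2000 and 8000 UMIs held 10.1 CPM, and the 2 deeper bins held 5.15 and 5.83. Those under 2000 UMIs held 0 Krt7 UMIs, which allows up to 34.0 CPM. From the shallowest bin to the deepest, Msln stood at 205, 171, 129 and 174 CPM in day 1 mitotic cells. In other day 1 cells Msln stood at 107, 58.7, 68.5 and 135 CPM, and Krt7 at 295, 182, 223 and 452. Split by the rule itself, Krt7 stood at 492 CPM in the 109 members at 5 to 10 rule UMIs per 10000. It then stood at 376 and 293, and at 287 in the 62 members at 40 or more. In the same order Msln stood at 175, 144, 167 and 287 CPM and Areg at 117, 99.0, 69.2 and 119. S100a6 fell throughout, from 15492 to 10224 CPM. The median depth moved with these strata, from 16364 UMIs in the first to 1065 in the last, and its part in these values was not tested.

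Among the EGFR ligands, amphiregulin had the largest ratio to untreated mitotic cells. Areg stood at 99.2 CPM in day 1 mitotic cells, 8.97 in untreated, 3.68 on day 3 and 5.70 on day 3 with AREG. The log2 ratio of day 1 to untreated was 3.33 (interval without the added 1 CPM, 3.11 to 3.85), and 1 cell held 12.5% of the day 1 UMIs. After thinning, Areg was found in 9.18% of day 1 mitotic cells, 1.93% of untreated ones and 9.16% of other day 1 cells. Of the 4 ligands measured, 3 were at least 2-fold higher on day 1, 75% against 30.6% of all genes. Tgfa, the classical transforming ligand, stood at 22.5 against 7.09 CPM, Hbegf, the heparin-binding ligand, at 49.6 against 23, and Btc, betacellulin, at 27.7 against 13.5, just under 2-fold. Of 9 ERBB receptors and regulators 6 were higher, 66.7% against 30.6% of all genes, with a median log2 ratio of 1.12. Egfr itself was not, at 12.2 against 8.43 CPM. Against other day 1 cells none of 10 ERBB genes was 2-fold apart, and their median log2 ratio was -0.25.

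Genes that respond to ERK signalling were higher as well. Of 14 measured, 11 were at least 2-fold higher than in untreated mitotic cells, 78.6% against 30.6% of all genes, and none lower. The median log2 ratio was 1.71, or 1.19 above the median gene. Fosl1, an AP-1 subunit, stood at 14.8 against 0.937 CPM. Epha2, an ephrin receptor, stood at 43.1 against 8.30, and Dusp5, a phosphatase acting on ERK, at 10.7 against 1.87. Against other day 1 cells none of the 14 was 2-fold apart, and their median log2 ratio was 0.03. Of 13 AP-1 and immediate early genes 7 were higher, 53.8% against 30.6% of all genes. Among them was Klf4 at 473 against 111 CPM, while Jun was level at 176 and 183. Of 6 YAP target and pathway genes 4 were higher, 66.7% against 30.6% of all genes. Ccn1 was lower (16.7% against 1.92% of all genes), at 12.3 against 40.3 CPM.

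**Figure D4:**
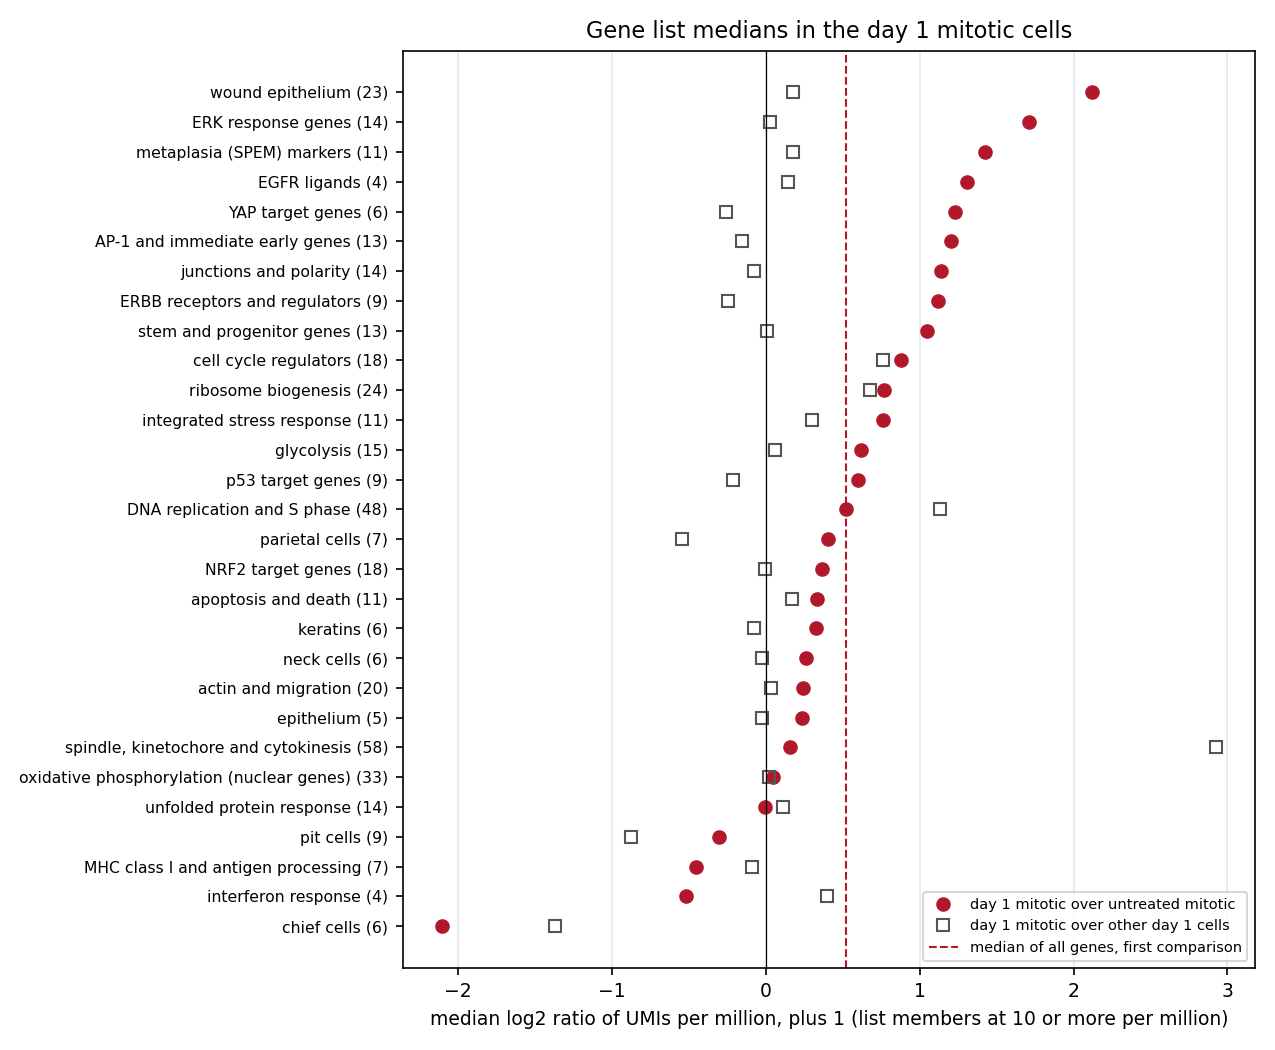
Median log2 ratio of each gene list (number of genes measured in the first comparison in brackets) for day 1 mitotic over untreated mitotic cells (circles) and over other day 1 cells (squares). The wound and ERK lists lie far right of the dashed line, the median of all genes at 0.52, only in the first comparison, and the spindle list, at 2.93, only in the second.

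The machinery of division differed less. Of 58 spindle, kinetochore and cytokinesis genes outside the rule, 5 were at least 2-fold higher on day 1 than in untreated mitotic cells. That is 8.62%, against 30.6% of all genes, and none was lower. The median log2 ratio was 0.16, or 0.36 below the median gene, and its sign changed between alternatives (-0.36 to 0.33). The low end is the value centred on the median gene. The 5 were Ube2s, a ubiquitin carrier, the passenger protein Incenp, the cytokinesis genes Anln and Racgap1, and the spindle motor Kif11. The kinase Plk1 stood at 48.2 against 53.8 CPM and Aurkb at 63.4 against 64.2. At the low end, Cdkn3 stood at 39.5 against 74.0 CPM, Cdca8 at 82.0 against 124 and the tubulin regulator Stmn1 at 295 against 434. Against other day 1 cells, from which the rule separates them, 57 of the 58 were at least 2-fold higher, with a median of 2.93. The exception was Pttg1, securin, at 27.0 against 26.6 CPM. Hmmr had the highest ratio of the list. Among genes at 50 CPM or more in either sum, the highest were Cdca3, at 186 against 13.4 CPM, and Racgap1. The centromeric histone Cenpa, Nusap1 and Aurkb came next.

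Genes of DNA replication had the same median as all genes. Of 48 measured, 7 were at least 2-fold higher on day 1 than in untreated mitotic cells, 14.6% against 30.6% of all genes. None was lower, and the median log2 ratio was 0.52. The 7 were the histone chaperone subunit Chaf1a, the polymerase Pole, the helicase subunit Mcm4, Atad2, the ribonucleotide reductase subunit Rrm2, the licensing factor Cdt1 and Hells. Mcm4 stood at 43.8 against 15 CPM and Rrm2 at 170 against 75.6, and the replication clamp Pcna at 293 against 153. After thinning, Pcna was found in 43.0% of day 1 mitotic cells and 23% of untreated ones, and at least 1 UMI of the list in 94% and 86.5%. Within the day 1 members the list's summed level was 2909 CPM at 5 to 10 rule UMIs per 10000 and 1939 at 40 or more. In untreated mitotic cells it was 2117 and 1610 CPM. Median depth fell across these strata, and its part was not tested.

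Of 18 measured cell cycle regulators 7 were higher, 38.9% against 30.6% of all genes, and none was lower. Their median was 0.35 above the median gene. E2f1, a transcription factor of S phase entry, stood at 17.4 against 3.48 CPM, E2f8, its repressor relative, at 41.5 against 10.3, and Mybl2, which encodes B-Myb, at 16.6 against 3.61. Foxm1, the factor of G2 genes, stood at 17.5 against 5.62. The cyclin Ccne1, the pocket protein Rbl1 and the kinase Cdk6 made up the rest. The cyclins Ccnd1 and Ccnd2 were within 2-fold, at 87.0 against 70.0 and 64.5 against 59.3 CPM.

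Cdkn1a, the p21 inhibitor of cyclin-dependent kinases, differed between dividing and other cells of day 1 by just under 2-fold. It stood at 97.9 CPM in day 1 mitotic cells and 195 in other day 1 cells, and at 51.5 and 171 in the same cells of the untreated library. After thinning it was found in 13.3% of day 1 mitotic cells, 24.9% of other day 1 cells and 8.09% of untreated mitotic cells. In the day 1 members it stood at 125 CPM at 5 to 10 rule UMIs per 10000 and 49.5 at 40 or more. The last rests on 62 cells with 202182 UMIs in all. In untreated mitotic cells Cdkn1a stood at 66.3 and 20.4 CPM in the same strata. Median depth fell across these strata, and its part was not tested. Of 9 p53 target genes 2, Plk3 and Mdm2, were higher than in untreated mitotic cells, 22.2% against 30.6% of all genes. The list's median log2 ratio was 0.60.

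**Figure D5:**
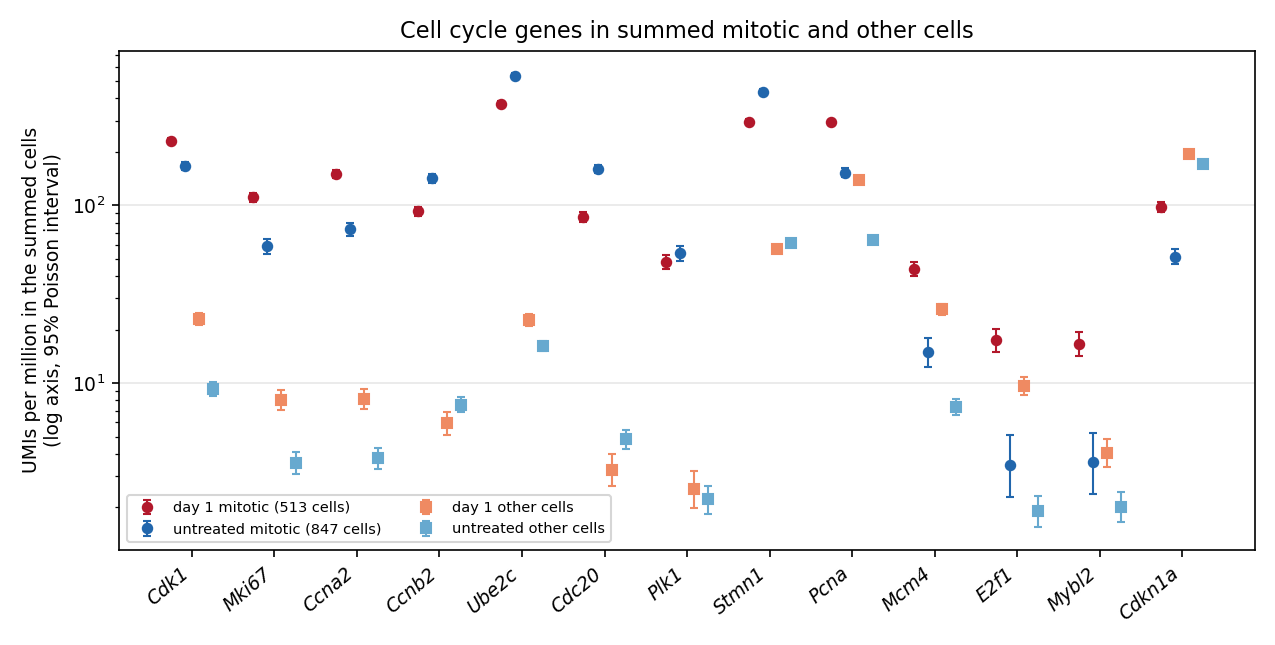
Level of 13 cell cycle genes in CPM on a log axis, for the summed mitotic (circles) and other (squares) cells of the day 1 and untreated libraries, with 95% Poisson intervals. Mcm4, E2f1 and Mybl2 are at least 2-fold higher in day 1 than in untreated mitotic cells, and Cdkn1a is highest in the other cells. Cdk1, Mki67, Ccna2, Ccnb2, Ube2c and Cdc20 belong to the rule and are shown as a description.

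Products of mature surface cells were split. Gkn1 and Gkn2, gastrokines secreted by pit cells, stood at 7545 and 12552 CPM in day 1 mitotic cells, against 49687 and 61398 in untreated mitotic cells and 38675 and 46076 in other day 1 cells. On day 3 the mitotic cells held 29198 and 27256 CPM of them. The trefoil peptide Tff1 was within 2-fold, at 46798 against 68270 CPM. The surface mucin Muc5ac was higher, at 1965 against 712 CPM, as were the transcription factors Foxq1, at 151 against 53.5, and Gata5, at 31.1 against 8.83. Of 9 pit genes, 3 were thus higher (33.3% against 30.6% of all genes) and 2 lower (22.2% against 1.92%). Muc5ac was higher still in other day 1 cells. Split by depth as for Krt7, it stood at 2716 to 5072 CPM there and at 1405 to 4051 in day 1 mitotic cells. Per cell, the pit list had a median of 685 per 10000 UMIs on day 1 and 1479 in untreated mitotic cells. Untreated cells ranged widely, from 160 at the 25th percentile to 2968 at the 75th, against 269 and 1061 on day 1.

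Of 6 neck genes 3 were higher (Cd44, Aqp5 and Muc6), 50% against 30.6% of all genes. Tff2 alone was lower, 16.7% against 1.92% of all genes. Their median log2 ratio was 0.26. Tff2, the trefoil peptide of neck cells and progenitors, stood at 13146 CPM on day 1 against 30015 in untreated mitotic cells, and at 5270 in other day 1 cells. Muc6, the neck mucin, stood at 72.1 against 26.2 CPM, and at 321 on day 3. Of 6 chief genes 4 were lower, Pga5, Clps, Pla2g1b and Cblif, which is 66.7% against 1.92% of all genes. The pepsinogen Pga5 stood at 32.4 CPM on day 1 and 499 untreated, and copies of the pepsinogen family may share its reads. Clps, colipase, stood at 253 against 2623, with 29.9% of the untreated UMIs set against free RNA as above. Pgc, progastricsin, was within 2-fold, at 22223 against 40161. Among other cells the 6 chief genes had a median log2 ratio of day 1 to untreated of -4.27. In mitotic cells that median was -2.11.

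Other genes with the lowest ratios were epithelial. Agr2, a disulfide isomerase of mucous cells, stood at 366 CPM on day 1 against 1913 untreated, Lgals2, a galectin, at 1705 against 7911, and Mogat1, an acyltransferase of lipid synthesis, at 45.2 against 394. Sectm1b stood at 3.23 against 54.2 CPM, Smim24 at 5.67 against 66.1, Tmem171 at 8.11 against 51.4 and the glutathione transferase Gstt1 at 33.9 against 163. Lypd8l and Lypd8, which are near-identical copies, stood at 96.9 against 393 and 24.3 against 98.1. The endocrine hormone Ghrl stood at 14.1 against 165, with 12.9% of the untreated UMIs in 1 cell. Sst, also endocrine, stood at 2.25 against 26.9. Chga stood at 3.71 against 150, with 37.4% of the untreated UMIs in 1 cell.

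Among stress genes, 6 of 18 NRF2 targets were at least 2-fold higher than in untreated mitotic cells and none lower. That is 33.3%, near the 30.6% of all genes. These were the cystine carrier Slc7a11 at 21.5 against 2.14 CPM, Akr1b8 at 189 against 30.6, Srxn1 at 49.3 against 8.57, Gclc at 154 against 32.8, Gsr at 325 against 73.2 and Txnrd1 at 205 against 50.3. Nqo1, often used as the leading gene of this programme, stood at 288 against 479, and the list's median was 0.16 below the median gene. Of 11 genes of the integrated stress response 3 were higher, 27.3% against 30.6% of all genes, namely the amino acid carrier Slc7a5 and the serine synthesis enzymes Phgdh and Psat1. Of 24 ribosome biogenesis genes 9 were higher than in untreated mitotic cells, 37.5% against 30.6% of all genes. The median log2 ratio was 0.77, and 17 of the 24 were above the median gene. Against other day 1 cells the median was 0.68. Nucleolin, Ncl, stood at 589 CPM in day 1 mitotic cells, 266 in untreated ones and 319 in other day 1 cells. None of 33 nuclear genes of oxidative phosphorylation was 2-fold apart, with a median of 0.05. Of 4 interferon response genes 1, Oas1a, was lower, 25% against 1.92% of all genes, and none was higher.

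The remaining lists held small or mixed differences. Of 11 markers of spasmolytic polypeptide-expressing metaplasia 6 were higher (54.5% against 30.6% of all genes) and 2 lower (18.2% against 1.92%). The higher ones included Wfdc2, an antiprotease, at 365 against 101 CPM, and Dmbt1, a mucosal scavenger protein, at 305 against 92.1. The lower ones were Tff2 and Gkn3, at 21.4 against 64.9. Of 14 genes of the unfolded protein response 3 were higher, 21.4% against 30.6% of all genes, namely Dnajb11, Hyou1 and Dnajb9. The isomerase Pdia6 alone was lower (7.14% against 1.92% of all genes), at 148 against 330 CPM. Of 15 glycolysis genes 1, the hexokinase Hk2, was higher, 6.67% against 30.6% of all genes. Of 11 apoptosis genes 1 (9.09% against 30.6% of all genes), the survival factor Mcl1, was higher, at 65.0 against 18.1. In the same list Gsdmc2, a gasdermin, was lower (9.09% against 1.92% of all genes), at 0.391 against 12.3. Of 7 genes of MHC class I 1, the immunoproteasome subunit Psmb9, was lower (14.3% against 1.92% of all genes), at 5.86 against 16.9. B2m stood at 122 against 231. Of 3 tuft cell genes Avil, advillin, was higher (33.3% against 30.6% of all genes), at 47.2 against 11.9. The tuft cell factor Pou2f3 stood at 81.9 against 44.7.

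Of 14 junction genes 8 were at least 2-fold higher, 57.1% against 30.6% of all genes. Among them were Cgn, cingulin, at 31.1 against 8.43 CPM, Tjp1 at 51.1 against 18.3 and Dsp, desmoplakin, at 126 against 52.6. Against other day 1 cells none of the 14 was 2-fold apart, with a median log2 ratio of -0.08. In the other cells the junction genes had a median log2 ratio of day 1 to untreated of 1.22. Of 20 actin and migration genes 6 were higher, 30% and thus the share of all genes, with a median 0.28 below the median gene, among them Tpm2, Flna, Myh9, Actn1 and Actn4. Of the stem and progenitor list 7 of 13 were higher (53.8% against 30.6% of all genes). They included Sox21, at 47.7 against 8.57, and Lgr4, at 120 against 36.9. Against other day 1 cells the median log2 ratio of that list was 0.01. Among keratins Krt8, Krt18 and Krt19 stood within 2-fold, while Krt20, a keratin of differentiated surface cells, stood at 10.1 CPM on day 1 against 38.8 in other day 1 cells. The remaining genes of high ratio to untreated mitotic cells were the glucocorticoid-induced Fkbp5, at 144 against 12.3 CPM, the ubiquitin ligase scaffold Cul3, at 208 against 20.1, the mismatch glycosylase Mbd4, at 62.5 against 7.90, Rundc1, at 63.8 against 8.97, and the host RNA Snhg9, at 106 against 15.7. Whether the counting used strand is not given, so reads of overlapping genes cannot be told apart.

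The genes lowest in day 1 mitotic cells relative to other day 1 cells were of another kind. Nbea, neurobeachin, stood at 49.0 CPM against 2786, and Lsamp, a neural adhesion protein, at 62.3 against 1289. Naa25 stood at 22.3 against 329, St6galnac3 at 12.4 against 597 and Cntn5 at 14.3 against 278. Izumo1r and Arhgef33 stood at 0.684 CPM each, Gfral at 1.27 and Abca15 at 1.56. Notum, a Wnt deacylase, stood at 2.93 against 204 CPM, and the stress gene Nupr1 at 4.79 against 256, with 22.8% of the UMIs of the other cells in 1 cell. Clnk and Clps were lower too.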

How the data were processed

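The authors deposited raw UMI counts per gene and barcode, whole numbers with no normalization, for 4 libraries of corpus epithelium. The build was GRCm39 (mm39) per the submitters' processing notes. The sources used here name neither aligner nor counting program. The count files listed 32227 genes, with 27 repeats of a symbol, of which the first was used. UMIs were summed per library and cell group and scaled to CPM (UMIs per 1000000). Log2 ratios add 1 CPM to both sides, over genes at 10 CPM or more in either sum. The intervals of gene ratios are of the ratio without this 1 CPM. Intervals are exact Poisson, Clopper-Pearson and conditional binomial at 95%, and Katz for share ratios. Summed UMIs were 10232092 for day 1 mitotic, 7472457 for untreated mitotic and 29143867 for other day 1 cells. A count of 0 allows up to 3 counts.

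No test could be run with 1 library per group. Day 1 mitotic cells were compared with untreated mitotic cells and with other day 1 cells. The rule genes, Atp4a and Atp4b were left out of the second. The members, 38 gene lists and filters were chosen with earlier results of these data known. Genes named were the 15 highest and 15 lowest ratios of each comparison at 50 CPM or more in either sum, and members of the lists; a few genes that met this rule are not reported here. Mitochondrial, ribosomal protein, haemoglobin and immunoglobulin genes, unnamed models and genes with over 25% of the higher group's UMIs in 1 cell (Cym and Chga in the first comparison, Ghrl, Prap1, Apoa4, Gast and Sst in the second) were not named by ratio. The ratio code was tested on simulated counts. Promoter sequences are RefSeq's, build GRCm38.p6. Tools were Python 3.11.15, numpy 2.4.6, scipy 1.17.1, pandas 2.3.3 and matplotlib 3.10.9. Alternatives changed the cell filters, the rule, the pseudocount, the CPM minimum and the scaling.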

Additional observations from a re-analysis of the deposited data

Results flagged for a closer look

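The rule genes were also present in barcodes under 50 UMIs, which are not cells and enter no comparison. They made up 477 CPM of the UMIs in these barcodes on day 1 (464 to 490), against 189 CPM in the untreated library, 129 on day 3 and 229 on day 3 with AREG. In cells outside the mitotic rule they stood at 94.9 CPM on day 1 and 64.2 in the untreated library. In these day 1 barcodes Krt7 stood at 315 CPM and Msln at 148.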

How the results depend on the processing

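No paired analysis was possible because each group is 1 library and the labels give no replicate numbers. The genes named by ratio kept their sign and stayed at least 2-fold apart under every alternative run. The log2 ratio of mitotic shares was 0.65 among cells under the proton pump limit and lay between 0.96 and 1.14 under the other alternatives. Counts of genes moved, and so did the number of genes compared. Higher and lower than in untreated mitotic cells, the counts were 895 and 71 of 7658 (11.7% and 0.927%) with a pseudocount of 10 CPM. At 50 CPM or more they were 563 and 61 of 2606 (21.6% and 2.34%). At 1 CPM or more they were 3548 and 248 of 13505 (26.3% and 1.84%). Centred on the median gene they were 871 and 677 of 7658 (11.4% and 8.84%). Leaving out mitochondrial, ribosomal protein and the most abundant genes gave 393 lower of 9352 (4.20%). With cells of 2000 to 20000 UMIs in both libraries, a range chosen after seeing the data, the counts were 4038 and 251 of 8660 (46.6% and 2.90%). Against other day 1 cells they were 198 and 157 of 8067 (2.45% and 1.95%) with the pseudocount of 10. At 50 CPM or more they were 116 and 87 of 2648 (4.38% and 3.29%). In this second comparison the lower count was 769 of 9181 (8.38%) by the mean of per-cell CPM and 1110 of 14714 (7.54%) at 1 CPM or more. Against other day 1 cells the higher and lower counts were 385 and 383 in the report, 418 and 684 without the abundant genes, and 323 and 440 centred on the median gene. The cause of these shifts was not tested. Subtracting free RNA, also chosen after seeing the data, gave 2353 and 147 of 7654 (30.7% and 1.92%) against untreated mitotic cells. Against other day 1 cells it gave 386 and 384 of 8066 (4.79% and 4.76%). The median of the wound list against untreated ranged from 1.34 to 2.12 over the alternatives, and that of the spindle list from -0.36 to 0.33, a change of sign. The pit (-0.83 to 1.22), NRF2 (-0.16 to 0.63), interferon (-1.04 to 0.32) and oxidative phosphorylation (-0.48 to 0.06) lists also changed sign. In these lists and the spindle list, the low end is the median centred on the median gene. In all, 5 of 16 list medians changed sign against untreated mitotic cells and 8 of 16 against other day 1 cells. Genes under about 10 CPM rest on few UMIs, and differences between animals cannot be told from treatment.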
